A study of Mus musculus with 6 samples.

Results

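The 10 genes described here encode the MYC family of transcription factors (Myc, Mycn, Mycl), their obligate partner MAX (Max), the MAX-binding antagonists (Mxd1, Mxd3, Mxd4, Mxi1, Mnt) and the MAX-like factor MLX (Mlx). They were chosen by gene symbol with earlier results of the same libraries known, among them the difference of Myc between the groups, and make up 10 of the 52183 genes in the deposited expression table. Every difference between the groups at these 10 genes is therefore given as a description, with its standard error (SE) and 95% interval and without a p-value. Whether a member passed the threshold set over all genes is also given as a description only.

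RNA sequencing was done on haematopoietic stem cells, which reside in the marrow and maintain all blood lineages, sorted by flow cytometry from female mice 4 months of age. There were 3 libraries from mice with the genotype Control and 3 from mice with the genotype Thbs1 knockout (TSPKO in the titles), and the comparison asks which transcripts of the stem cells differ when Thbs1, the gene for thrombospondin-1, is deleted. The labels give no strain, no form of the Thbs1 allele, no sorting gate and no statement on whether libraries came from separate mice, so that p-values cover only how far these libraries spread, and that spread may be technical. Levels are the FPKM (fragments per kilobase of exon, scaled to the mapped fragments of the library) that the authors deposited.

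MYC proteins bind DNA as heterodimers with MAX at E-boxes, the letters CACGTG, and raise transcription of genes for ribosome production, nucleotide and amino acid supply and the cell cycle. The MXD proteins, MXI1 and MNT compete for MAX, bind the same letters and recruit SIN3 and histone deacetylases, which lower transcription. In blood stem cells MYC is known for its part in the balance between self-renewal and differentiation, and MYC and MYCN act there in part redundantly.

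Reading the steps of FPKM values gave depths of 22730000 to 30890000 reads per library, and between 21301 and 28104 genes were above 0. All 12 stem cell markers listed for the check of the sort (Procr, Ly6a, Kit, Slamf1 and others) passed the filter on low values, and their summed FPKM was 759 to 847 in the control libraries and 743 to 828 in the libraries labelled knockout. Thbs1 itself was not lower in the libraries labelled knockout. It was at 4.12, 13.8 and 2.33 FPKM in the control libraries and at 10.8, 8.5 and 7.68 FPKM in those labelled knockout, which overlap (exact two-sided permutation p = 0.5, where 3 libraries against 3 cannot go below 0.1). Without the second control library, which had the highest Thbs1, its log2(FPKM + 1) difference of 0.65 became 1.26 (limma adjusted p = 0.0343). That is higher in the libraries labelled knockout, and no other omission of 1 library gave a call. A table of gene totals does not show which exons gave the reads, so these values do not check the deletion. Because these are bulk samples, fewer cells of a type and less RNA per cell cannot be told apart.

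The members' own promoters can hold the letters that the network binds. RefSeq windows (GRCm38.p6, 250 bases before the start of the gene to 50 after it, both strands searched) were given for 9 of the 10 members, all but Myc, whose promoter was not searched. The E-box letters CACGTG lay in those of 4 members, Max, Mlx, Mnt and Mxd4, while 7.15% of all 32851 windows of the same length held them. These 4 stretches are printed because they are where a member's promoter carries the network's own letters, in the 5' to 3' direction of the gene, with the E-box in capitals and 20 bases on each side. The first is Max (chr12:76962226-76962271, minus strand), then Mlx (chr11:101087230-101087275, plus strand), Mnt (chr11:74830781-74830826, plus strand) and Mxd4 (chr5:34187904-34187949, minus strand).
Max: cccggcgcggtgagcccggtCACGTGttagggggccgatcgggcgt
Mlx: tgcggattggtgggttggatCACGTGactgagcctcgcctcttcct
Mnt: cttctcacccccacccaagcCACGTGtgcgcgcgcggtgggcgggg
Mxd4: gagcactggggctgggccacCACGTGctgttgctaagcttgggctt
Counted so that -1 is the base before the RefSeq start, the E-box began at -3 in Max, at -40 in Mlx, at -123 in Mnt and at -219 in Mxd4. The GENCODE start of Max lies 47 bases further into the gene, so the position relative to the start depends on the annotation. A match of letters is a description and not evidence of binding.

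The Mycn window held no E-box but 3 matches to the letters of an E2F site, the element bound by the E2F factors of the G1 to S transition. The letters searched were TTTCCCGC, TTTGGCGC, TTTCGCGC and TTTGCCGC, which 2.265% of all windows held. The stretch (chr12:12941977-12942039, minus strand, GRCm38.p6) is printed because no other window of a member held such a match; the matches are in capitals.
Mycn: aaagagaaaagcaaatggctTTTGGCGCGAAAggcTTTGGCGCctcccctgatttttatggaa
The first match, TTTGGCGC, began at -183 on the strand of the gene, and the match on the other strand, TTTCGCGC, covered bases from -179 and shares letters with it. A further TTTGGCGC began at -168. The GENCODE start of Mycn lies at -78 on this count. Windows of Mxd3 and Mxi1 held none of the motifs searched, which besides these were CCAAT (in 37.41% of all windows) and TATAAA (in 13.62%), and that of Mxd1 held CCAAT at 4 positions.

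Myc, Mycn and Max made up the top of the network in both groups, and the MYC family summed to between 8.68 and 12.1 times the level of the antagonists in every library. By mean FPKM the order was Myc, Mycn, Max, Mlx, Mxi1, Mxd1, Mnt, Mxd4, Mxd3 and last Mycl in the control libraries. The same order held in the libraries labelled knockout. FPKM is per length of annotated exon, which ranged from 1999 bp in Mlx to 8483 bp in Mxd4. Which of these exons the cells use was not examined, so levels compared between genes depend on the annotation. Among neighbours in that order, 2 pairs overlapped in the control libraries: Max stood above Mlx in 2 of 3 libraries, and Mxd1 above Mnt in 2 of 3. In the libraries labelled knockout no neighbours overlapped.

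**Figure D1:**
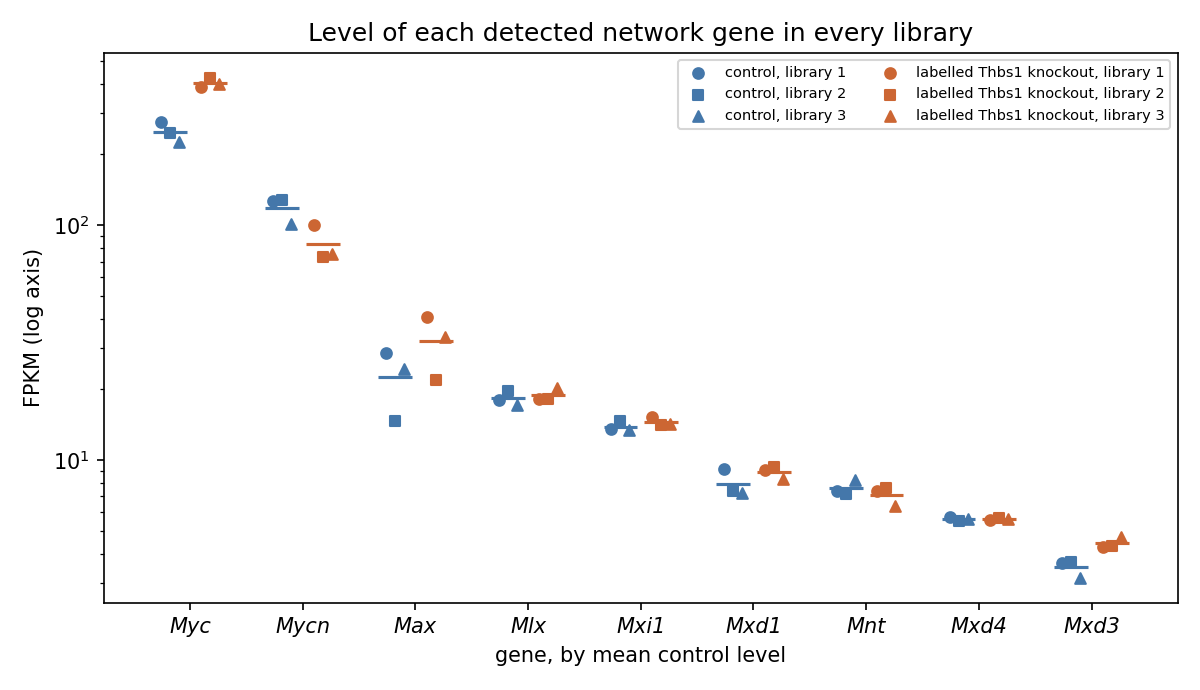
FPKM on a log axis for the 9 detected genes of the network in each library, with symbols for the library number, blue for control and orange for the libraries labelled Thbs1 knockout, and a bar at each group mean. Myc is separated between the groups (225 to 273 against 387 to 423 FPKM), Mycn is nearly touching (101 against 100.3 FPKM at the nearest libraries), Max is spread widely within both groups, and Mycl, listed at 0 in all libraries, is left out.

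Myc, the most studied member and a driver of growth in many tissues, was the most abundant gene of the network. Its gene lies at chr15:61985391-61990374 on the plus strand (GRCm38, GENCODE M21), with 2717 bp of exon that no other gene shares. It was at 273, 248 and 225 FPKM in the control libraries and at 387, 423 and 400.1 FPKM in those labelled knockout. All 3 libraries labelled knockout were above all 3 control libraries, and the gap between the groups was wider than the range within either. The means were 248.8 ± 24.1 and 403 ± 18.3 FPKM (SD, n = 3 each), a ratio of 1.62. On the log2(FPKM + 1) scale the difference was 0.70 ± 0.08 (SE), with a 95% interval from 0.51 to 0.89. These values rest on 13909.6 to 32460.9 reads per library, so counting error is small beside the spread between libraries.

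Mycn, the family member known from embryonic and stem cell compartments, lies at chr12:12936093-12941914 on the minus strand. It was at 126, 128 and 101 FPKM in the control libraries and at 100.3, 73.5 and 75.15 FPKM in those labelled knockout. The lowest control library and the highest library labelled knockout were almost level, and the groups did not overlap. The means were 119 ± 14.9 and 83.0 ± 15.03 FPKM (SD, n = 3 each), and the log2 difference was -0.52 ± 0.13 (SE), with a 95% interval from -0.81 to -0.22. Mycn thus stood on the other side of 0 from Myc, and it did not pass the threshold across all genes. Without the first library labelled knockout the log2 difference of Mycn was -0.66 and passed it.

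Mycl, which is known from dendritic cells and lung, was listed at 0 in all 6 libraries. At the depth of these libraries 3 reads would correspond to 0.0241 to 0.0327 FPKM for its 4038 bp of exon, a limit that covers counting error only. No comparison between the groups can be made for it.

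The sum of Myc and Mycn was 400, 376 and 327 FPKM in the control libraries and 487, 496 and 475 FPKM in those labelled knockout. The sum did not overlap between the groups, with means of 367 ± 37.3 and 486 ± 10.6 FPKM. Myc contributed 68.4%, 65.9% and 69.0% of the sum in the control libraries and 79.4%, 85.2% and 84.2% in the libraries labelled knockout. The ratio of Myc to Mycn was 2.11 ± 0.151 in the control libraries and 4.98 ± 0.997 in those labelled knockout. The sum, share and ratio are computed from the Myc and Mycn values above, so their separation is no further result.

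**Figure D2:**
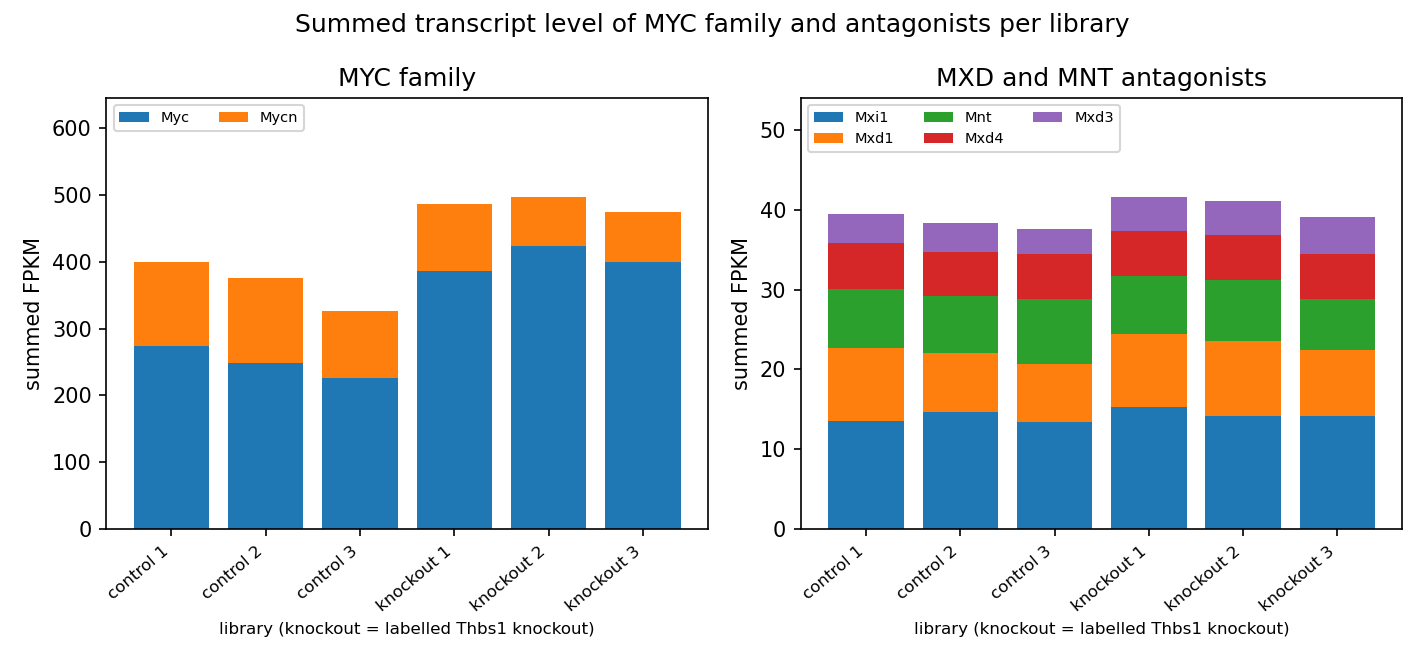
Summed FPKM in each library of the MYC family (left) and of the 5 antagonists (right), stacked by gene on axes that start at 0 and differ in scale. The MYC family sum is 327 to 400 FPKM in the control libraries and 475 to 496 FPKM in those labelled knockout, while the antagonist sums of 37.6 to 39.4 and 39.1 to 41.6 FPKM overlap.

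Max, the partner that MYC and the antagonists share, lies at chr12:76937269-76962201 on the minus strand, and its E-box at the start of the gene is printed above. It was at 28.6, 14.7 and 24.4 FPKM in the control libraries and at 40.7, 21.9 and 33.3 FPKM in those labelled knockout. The groups overlapped, and in each the second library was lowest and the first highest. Its log2 difference was 0.49 ± 0.25 (SE), with a 95% interval from -0.08 to 1.06 that holds both no difference and one larger than that of Myc. The within-group SD of Max on the log2 scale was 0.46, and 96.4% of tested genes had a smaller one, although 1221.5 to 4526.8 reads per library lay behind the values. The 8 exonic blocks of Max share no base with another gene, and no other gene had a transcript of 90% identity over 100 bases or more.

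Ratios to Max overlapped between the groups. The MYC family sum over Max ranged from 13.4 to 25.6 in the control libraries and from 12.0 to 22.6 in the libraries labelled knockout. Max over the summed antagonists was 0.725, 0.383 and 0.649 in the control libraries and 0.980, 0.533 and 0.852 in the libraries labelled knockout, which also overlap.

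Among the antagonists Mxi1 was the most abundant. Mxi1, also known as MXD2, was at 13.5, 14.6 and 13.4 FPKM in the control libraries and at 15.3, 14.2 and 14.2 FPKM in those labelled knockout, which overlap. Its log2 difference was 0.07 ± 0.08 (SE). An alignment of its longest transcript found a pseudogene, Gm13735, with 91.0% identity over 609 bases, which was at 0 FPKM in every library.

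Mxd1, an antagonist known to be induced as myeloid cells differentiate, was at 9.15, 7.38 and 7.22 FPKM in the control libraries and at 9.06, 9.37 and 8.29 FPKM in those labelled knockout. The first control library lay within the range of the other group, so the groups overlapped. The log2 difference was 0.16 ± 0.11 (SE), with a 95% interval from -0.09 to 0.41.

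Mnt, the broadly expressed antagonist that is present in both resting and dividing cells, was at 7.41, 7.19 and 8.23 FPKM in the control libraries and at 7.37, 7.61 and 6.35 FPKM in those labelled knockout. The groups overlapped, and the log2 difference was -0.09 ± 0.11 (SE). On the TPM scale the sign of Mnt turned, to 0.10, since that scaling moved the median of all genes by 0.21 on the log2 scale; relative to that median Mnt stayed below it.

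Mxd3, the antagonist known from dividing cells, was the lowest detected member, at 3.64, 3.69 and 3.16 FPKM in the control libraries and at 4.26, 4.31 and 4.70 FPKM in those labelled knockout. All 3 libraries labelled knockout were above all control libraries. The means were 3.50 ± 0.293 and 4.42 ± 0.241 FPKM (SD, n = 3 each), and the log2 difference was 0.27 ± 0.12 (SE), with a 95% interval from 0.01 to 0.54. Mxd3 did not pass the threshold across all genes except on the TPM scale. It shares 105 bp, 4.43% of its exons, with Prelid1 on the opposite strand, which was far above it at 44.6 to 60.0 FPKM. The library kit does not mark strand, so reads from the shared bases cannot be told apart. Their part in the level of Mxd3 and in its difference was not tested and may exceed the share of exon.

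Mxd4 was the steadiest gene of the network. It was at 5.71, 5.48 and 5.61 FPKM in the control libraries and at 5.56, 5.65 and 5.60 FPKM in those labelled knockout. The log2 difference was 0.00 ± 0.10 (SE), with a 95% interval from -0.22 to 0.22, and 0.112% of tested genes had a smaller within-group SD. It shares 514 bp with the gene model Gm42846 on the opposite strand, which was at 0 FPKM in every library. All exon of that model lies within the shared bases. How reads there were assigned is not given, so the 0 does not show what the overlap did to the level of Mxd4.

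The 5 antagonists summed to 39.4, 38.4 and 37.6 FPKM in the control libraries and to 41.6, 41.1 and 39.1 FPKM in those labelled knockout, and these sums overlapped. The MYC family sum over the antagonist sum was 9.53 ± 0.763 in the control libraries and 12.0 ± 0.231 in the libraries labelled knockout (SD, n = 3 each). These ratios did not overlap, with 8.68 to 10.1 against 11.7 to 12.1. Myc makes up most of the family sum, so this is no result separate from that of Myc. Within the antagonist sum, the share of Mxd3 was higher without overlap (8.40% to 9.61% against 10.2% to 12.0%) and that of Mnt lower without overlap (18.7% to 21.9% against 16.2% to 18.5%), while those of Mxi1, Mxd1 and Mxd4 overlapped.

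Mlx, the MAX-like partner of the nutrient-sensing factor MLXIP and of some MXD proteins, was at 18.0, 19.7 and 17.2 FPKM in the control libraries and at 18.2, 18.2 and 20.3 FPKM in those labelled knockout. The groups overlapped, with a log2 difference of 0.05 ± 0.09 (SE). Mlx shares 385 bp, 19.3% of its exons, with Psmc3ip on the opposite strand, which was at 12.6 to 17.3 FPKM, so part of the reads of either gene may belong to the other.

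**Figure D3:**
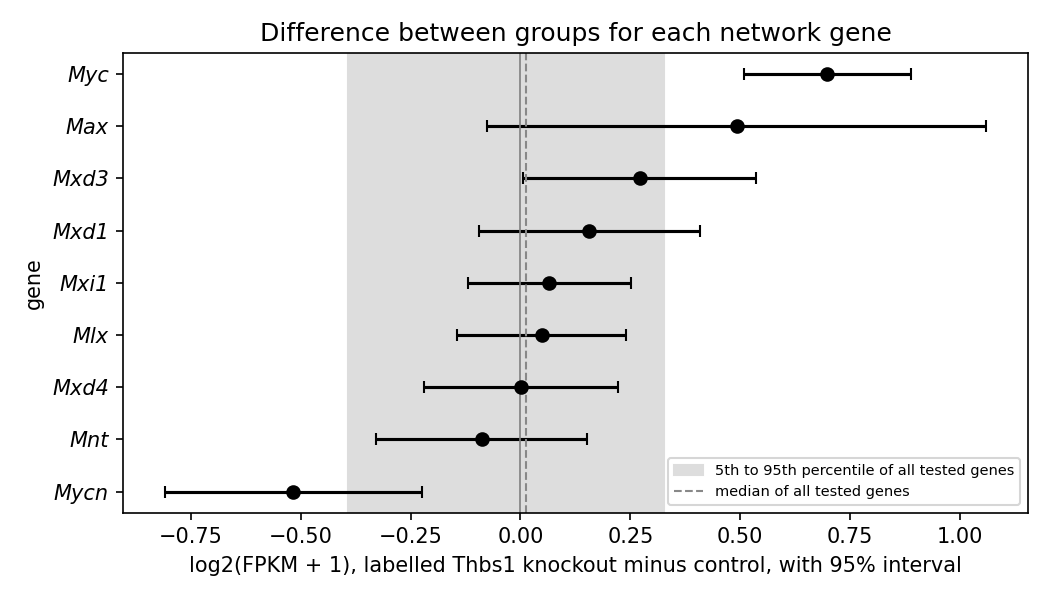
Difference in mean log2(FPKM + 1), libraries labelled Thbs1 knockout minus control, for the 9 tested genes of the network, with limma's 95% interval; the grey band spans the 5th to 95th percentile of all 12555 tested genes and the dashed line is their median. Myc and Max lie above the band and Mycn below it; the intervals of Myc and Mycn leave out 0, that of Mxd3 starts at 0.01, and those of the other 6 genes, Max included, hold 0.

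Across the 12555 genes that reached 1 FPKM in 3 or more libraries, 196 passed an adjusted p of 0.05 in limma, or 1.56%. Of these, 71 (0.566%) were higher in the libraries labelled knockout and 125 (0.996%) lower. Of the members, 9 entered this test and Myc alone passed, in the higher direction. The libraries of the groups did not overlap for 3 members, Myc and Mxd3 higher and Mycn lower, as they did not for 22.8% of all tested genes (12.6% higher and 10.1% lower). As the members were chosen with this contrast known, nothing is read from these counts.

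The profile of Myc over the 6 libraries was compared with those of 5834 other genes with a mean of at least 10 FPKM, by the root mean square distance of centred log2(FPKM + 1) values. The nearest gene was Egr1, an immediate early transcription factor, at a distance of 0.0704, where the median gene was at 0.355. Next came Dnaja1, a co-chaperone of HSP70, at 0.1004, P4ha1, a subunit of the collagen prolyl hydroxylase, at 0.105, Lpar5, a receptor for lysophosphatidic acid, at 0.117, and Nat10, a nucleolar RNA acetyltransferase, at 0.119. Egr1 was at 11.9, 9.83 and 9.67 FPKM in the control libraries and at 15.6, 18.7 and 15.7 FPKM in those labelled knockout. The 6 libraries include both groups, so a gene with a like difference between the groups lies near Myc on this measure.

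Genes around the network came from 8 lists of textbook partners, cofactors and targets, chosen, as the members were, with earlier results of the libraries known; their counts are descriptions beside those of all tested genes. Of 137 genes 127 were tested, and 3 rose and none fell in limma at an adjusted p of 0.05 (0.566% and 0.996% of all tested genes). Before adjustment 33 of the 127 were below a p of 0.05, beside 2057 of all 12555 tested genes (16.4%).

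Genes for ribosome production, which MYC activates, were mostly above 0. Of 26 listed, 25 were tested, and 24 had a log2 difference above 0, against 6704 of 12555 tested genes (53.4%). Their median was 0.15, against 0.01 for all tested genes. Of all genes averaging at least 5 FPKM, as these 25 do, 59.7% lay above 0, with a median of 0.04. The libraries did not overlap, higher, for 13 of the 25 (12.6% of all tested genes). Only Nop2, a nucleolar RNA methyltransferase, passed the test: it was at 45.1, 46.2 and 43.5 FPKM in the control libraries and at 55.5, 66.4 and 64.6 FPKM in those labelled knockout, a rise of 0.46 ± 0.08 (limma adjusted p = 0.0309). Rrp12, needed for the export of ribosomal subunits, differed by 0.43 (adjusted p = 0.0546), Nop16 by 0.32 (adjusted p = 0.0737) and Bop1, a 60S assembly factor, by 0.28 (adjusted p = 0.0752 in limma).

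Targets in growth and metabolism showed the same pattern of sign. Of 33 listed, 32 were tested, 29 lay above 0 (53.4% of all tested genes), and the median was 0.17. Of the 30 that average at least 5 FPKM, 28 lay above 0 (59.7% of all such genes). The libraries did not overlap, higher, for 15 of the 32 (12.6% of all tested genes). Srm, spermidine synthase, rose by 0.45 ± 0.07 (limma adjusted p = 0.0112), from 125, 119 and 122 FPKM to 169, 175 and 159 FPKM. Fkbp4, a co-chaperone of HSP90, rose by 0.38 ± 0.07 (limma adjusted p = 0.0377), from 147, 145 and 154 FPKM to 205, 195 and 180.1 FPKM. Hspd1, the mitochondrial chaperonin, differed by 0.36 (adjusted p = 0.0843) and Slc19a1, the folate carrier, by 0.31 (adjusted p = 0.0996). The rises of Nop2, Srm and Fkbp4 were no longer called without the intensity trend of limma, and none of the 127 genes was called higher when the second control library or the second library labelled knockout was left out. Of the 6 omissions of 1 library, Srm lost its call in these 2, Nop2 in 5 (adjusted p up to 0.116) and Fkbp4 in 5 (up to 0.14016, limma).

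Of 15 genes that MYC represses, 11 were tested and none was called in limma (2 at an unadjusted p of 0.05, where 16.4% of all tested genes pass). Of the 11, 7 lay below 0 (5851 of all 12555 tested genes), and the list's median was -0.08. For 2 of the 11 the libraries did not overlap, lower (10.1% of all tested genes). Ndrg1, a differentiation-linked gene, was at 21.1, 23.2 and 22.5 FPKM in the control libraries and at 18.0, 16.9 and 17.6 FPKM in those labelled knockout, a log2 difference of -0.33 (adjusted p = 0.0737). Cdkn1b, the inhibitor p27, differed by -0.33 (adjusted p = 0.316), Pdgfrb by -0.47 (adjusted p = 0.303) and Gadd45g by 0.28 (adjusted p = 0.319, all from limma). Without the second control library the list's median was 0.01.

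None of the other lists held a gene called in limma. At an unadjusted p of 0.05 there were 4 genes of MYC stability, 1 cofactor and Bmyc, from the list of other MAX and MLX partners. None of the SIN3 corepressors and E-box factors was below it, beside 16.4% of all tested genes. The 12 SIN3 corepressors, through which the MXD proteins act, had a median of 0.01 and ranged from -0.15 to 0.12. The 18 coactivators and cofactors of MYC had a median of 0.02, and Kat2a, a histone acetyltransferase, was farthest up at 0.30 (adjusted p = 0.0781). Among 17 genes that set the stability of MYC protein the median was 0.01, and Pim1, a kinase that stabilises MYC, was farthest out: it was at 15.6, 28.1 and 23.9 FPKM in the control libraries and at 16.2, 11.6 and 10.8 FPKM in those labelled knockout, which overlap, a log2 difference of -0.75 (adjusted p = 0.117). Usp36, a nucleolar deubiquitinase of MYC, differed by 0.28 (adjusted p = 0.152). Of the other MAX and MLX partners, Mga differed by -0.19 (adjusted p = 0.666) and Mlxip by 0.03 (adjusted p = 0.886, both from limma). Bmyc, also on that list, is a MYC paralogue without the domain that binds DNA and MAX, so it is no such partner. It differed by 0.21 (limma adjusted p = 0.173). Bmyc shares 62.8% of its exons with an antisense gene model at or near 0 FPKM. How reads of the shared bases were assigned is not given, so that level does not show what the overlap did to Bmyc. The 9 tested of 12 other E-box factors had a median of -0.09.

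**Figure D4:**
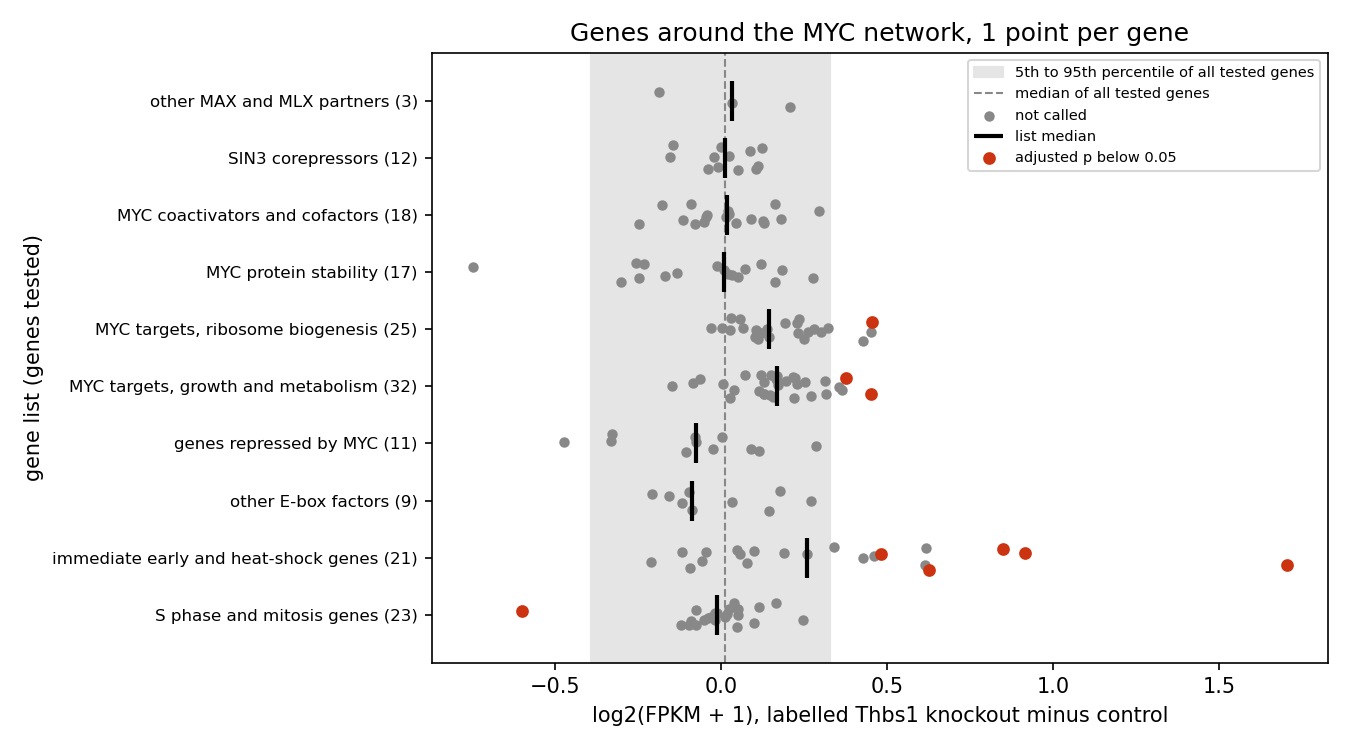
Log2(FPKM + 1) difference, libraries labelled Thbs1 knockout minus control, for each tested gene of the 8 lists around the network and of the 2 lists shown beside them, with red points for an adjusted p below 0.05, a black bar at each list's median, and the band and dashed line of all tested genes. Both lists of genes that MYC activates sit to the right of the dashed line (medians 0.15 and 0.17), and the immediate early and heat-shock genes reach farthest right, to 1.70.

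Other genes listed beside the network also differed between the groups. Of 21 tested immediate early and heat-shock genes, 5 rose and none fell (0.566% and 0.996% of all tested genes in limma), and the list's median was 0.26. Hspa8, the constitutive HSP70, rose by 0.85 ± 0.08 (limma adjusted p = 0.000921), from 359, 321 and 352 FPKM to 667, 602 and 592 FPKM. Hsph1, an HSP110 chaperone, rose by 0.91 (adjusted p = 0.00383), Egr1 by 0.63 (adjusted p = 0.0286) and Dnajb1, chosen after its values were seen, by 0.48 (adjusted p = 0.0332, all from limma). Hspa1b rose by 1.70 (limma adjusted p = 0.0112), but shares 99.2% identity over 2201 bases with Hspa1a, so its level is uncertain. Over the 6 omissions of 1 library Egr1 lost its call in 5 (limma adjusted p up to 0.104) and Dnajb1 in all 6, and the calls of Hspa8, Hsph1 and Hspa1b were lost in 0. The part of this response in the values of Myc was not tested. Nor was its part in Fkbp4 and Hspd1, a co-chaperone and a chaperonin counted above among the targets in growth and metabolism.

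Of 23 tested genes of S phase and mitosis, none rose and 1 fell (0.566% and 0.996% of all tested genes in limma), and the median was -0.01. Pcna fell by 0.60 (limma adjusted p = 0.0309), from 120.2, 115 and 152 FPKM to 77.6, 88.2 and 87.8 FPKM. Its processed copy Pcna-ps2, with 99.2% identity over 781 bases, was at 2.73 to 3.78 FPKM in the control libraries and at 43.7 to 47.7 FPKM in those labelled knockout, so reads of Pcna and its copy cannot be told apart. Pcna also lost its call in 4 of the 6 omissions of 1 library.

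Markers of other marrow cells were summed beside these results, and none of them was called in limma (4 were below an unadjusted p of 0.05, as were 16.4% of all tested genes). The summed FPKM of 6 megakaryocyte markers was 385 to 487 in the control libraries and 266 to 373 in the libraries labelled knockout, without overlap, and 1 gene carried that gap. Pf4, a platelet chemokine, was at 354, 321 and 270 FPKM in the control libraries and at 245, 164 and 159 FPKM in those labelled knockout (limma adjusted p = 0.0594). The other 5 summed to 115 to 138 and 107 to 128 FPKM, which overlap. All 6 had a log2 difference below 0, with a median of -0.15, where 5851 of all 12555 tested genes lay below 0. The sum of 8 B cell markers was 29.3 to 31.1 and 24.3 to 27.8 FPKM, without overlap, and was nearly all Cd79b, a B cell receptor subunit, at 27.3, 27.2 and 29.6 against 24.8, 23.3 and 25.2 FPKM (limma adjusted p = 0.239). The other 7 B cell markers summed to 1.5 to 2.05 and 1.00 to 2.53 FPKM, which overlap. Sums of 9 neutrophil markers (71.2 to 97.3 and 61.6 to 73.1), 7 monocyte and macrophage markers (352 to 393 and 334 to 366), 8 erythroid markers (75.7 to 104 and 56.5 to 126), 6 T cell markers (0.33 to 1.23 and 0.70 to 1.97), 5 basophil and mast cell markers (6.56 to 10.2 and 5.80 to 10.7) and 6 stromal and endothelial markers (17.1 to 17.9 and 16.3 to 17.3) overlapped. No marker of these lists was at 0 in all libraries, and below 1 FPKM in every library were 6 of the 8 B cell, 5 of the 6 T cell and 5 of the 9 neutrophil markers. Most of the neutrophil sum was Prtn3, and most of the monocyte and macrophage sum was Lyz2. Without them the sums were 3.79 to 3.91 and 3.09 to 4.63 FPKM, and 7.68 to 9.55 and 6.87 to 9.43 FPKM, which overlap. Ctsg (0 to 0.04 and 0.22 to 0.34 FPKM) and S100a8 (0.38 to 0.56 and 0.67 to 1.49 FPKM) were higher without overlap but too low to be tested. The other neutrophil markers overlapped. The part of other marrow cells in the levels of the MYC network was not tested.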

How the data were processed

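Total RNA of sorted stem cells, 2 ng per library, was made into libraries with the SMART-Seq v4 kit, per the labels' protocols; this kit does not mark strand. FastQC 0.11.5, STAR and edgeR are named, with the builds GRCm38 and mm10, per the submitters' processing notes; what each was run for, and the annotation, is not given in the sources used here. FPKM values of 52183 genes in 6 libraries were deposited by the authors, and all identifiers matched GENCODE M21.

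The members and the gene lists were chosen with earlier results of these data known. Because FPKM are not counts, values were tested as log2(FPKM + 1), which understates changes of low genes, with limma 3.58.1 in R 4.3.3 (group as the single term, eBayes with trend, two-sided, Benjamini-Hochberg over all tested genes), for genes reaching 1 FPKM in 3 or more libraries. The script was tested on simulated data. Named genes are the members, Thbs1, of each list the 4 or fewer genes lowest in unadjusted p, and the 5 nearest to Myc. Depth was read from the FPKM steps of genes with at most 400 bp of exon, where 99.5% to 99.7% of values were whole reads within 0.1 read. Identities came from BLAST 2.17.0. Alternatives were TPM, testing without a filter or only genes averaging 5 FPKM or more, a pseudocount of 0.1, median-of-ratios scaling, no trend, a replicate block, and leaving out each library.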

Additional observations from a re-analysis of the deposited data

How the results depend on the processing

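The log2 difference of Myc kept its direction under all alternatives and lay between 0.63 and 0.77 with any 1 library left out; on the TPM scale it was 0.90, or 0.69 above the median of all genes, which that scale moved to 0.21. The calls of members under the alternatives are descriptions, since the members were chosen with this contrast known. Myc was called under every alternative but no filter. Mycn kept its direction and was also called with a mean of at least 5 FPKM and without the first library labelled knockout, and Mxd3 on the TPM scale.

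Over all genes, 71 were called higher and 125 lower. Without the filter these were 9 and 35, without the trend 24 and 65, and when 1 library was left out 16 to 38 and 43 to 77. With a mean of at least 5 FPKM 112 were higher, and on the TPM scale 2370, so that 95.4% of calls were higher there against 36.2% in the values reported. Of the genes around the network, 3 were called higher. That number was 0 without the filter, 0 without the trend, 7 with a mean of at least 5 FPKM, 56 on the TPM scale and 0 to 2 with 1 library left out. None was called lower, but 1 was with a mean of at least 5 FPKM, and 0 to 1 with 1 library left out. The causes were not tested.

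Deviations from the group mean of same-numbered libraries correlated at -0.110, 0.037 and -0.079 over genes. The largest value, 0.190, was between the first control library and the third library labelled knockout. With so few libraries per group these values cannot settle whether samples were paired or shared a batch. With the replicate number as a block, 27 genes were called higher and 54 lower, and 0 of the genes around the network were called higher.

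Thbs1 differed by 0.65, and by 0.19 to 1.26 with 1 library left out, called only without the second control library (limma adjusted p = 0.0343). Signs turned, none of them called, on the TPM scale for Sin3a (0.0499), Gsk3a (0.0250), Srebf2 (0.0458) and Ccnb2 (0.0809), and without the first library labelled knockout for Mlxip (-0.00835; -0.00835 to 0.0784 over all such omissions). With 1 library left out, the differences of 2 members close to 0 also took either sign: Mlx ranged from -0.00169 to 0.101 and Mxd4 from -0.0123 to 0.0129. Over 502 values of 39 named list genes, 438 kept direction and side of the threshold, 39 were no longer called and 20 were newly called. Depth limits Mycl, which had no read, more than the members with over 100 reads in every library.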

Other observations

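The nearest tested genes on each side of 3 members, a choice made after the members' values were seen, were examined beside them. Pvt1, the long noncoding RNA 47.6 kb beyond Myc, was at 0.67, 1.05 and 0.74 FPKM in the control libraries and at 1.15, 1.31 and 1.52 FPKM in those labelled knockout, without overlap, a log2 difference of 0.36 ± 0.18 (limma adjusted p = 0.358). The next coding genes were farther away: Lratd2, 1131.61 kb before Myc, differed by -0.03, and Fam49b, 1938.72 kb beyond it, by -0.12. Beside Mycn, Ddx1, an RNA helicase gene 275 kb away, was at 43.7, 44.5 and 44.6 FPKM in the control libraries and at 41.1, 46.8 and 45.1 FPKM in those labelled knockout, a difference of 0.00. The adjusted p of the 12 neighbours tested beside Myc, Mycn and Mxd3 was 0.358 or higher.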
